A study of Mus musculus with 69 samples.

Results

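Cells whose title carries the letter C were compared with cells whose title carries the letter B, gene by gene. There were 7 letter C and 14 letter B cells, 21 of the 69 single cells analysed here. All 21 came from the ventricular and subventricular zone (VZ/SVZ) of the dorso-lateral cerebral wall of CD1 mouse embryos at embryonic day 14. No genotype or treatment is named, and no label but the title sets these cells apart. Tissue pieces were dissociated with trypsin and single cells were picked by hand at random. The study amplified 102 cells and put 70 on whole-genome oligonucleotide arrays after a quality check. The remaining cells carry the letters A (7 cells), D (7) and X (31), all from the VZ/SVZ, and E (3, from the cortical plate), and serve below only to place letters B and C. The labels do not say what a letter stands for or how it was given. Whether it was given from the array profiles themselves is not stated in the sources used here, so a gene that separates the letters may have helped to define them, which was not tested. The labels name neither the animal nor the litter a cell came from, so each letter counts as 1 sample. The SD is the spread over cells, and no test between the letters was possible.

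In the embryonic cortex, apical progenitors (radial glia) divide at the ventricle and make intermediate progenitors, which express the transcription factor gene Eomes, lose their contact with the ventricle and divide in the subventricular zone to give neurons. On that path the neural stem cell factors Sox2 and Pax6 and Notch signalling decline, proneural basic helix-loop-helix (bHLH) factors such as Neurog2 act first and those of the Neurod family later, and genes of migration and axon growth come on. Newborn neurons, which no longer divide, then move to the cortical plate.

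Signals are given as log2 of the deposited intensity. Values under a floor of 54.8 intensity units, the dip between the low and the high mode of all values, were set to it, and a cell is said to express a gene above the floor when its signal passed that level. The floor was passed by 3801 to 5550 genes per letter B cell (median 4859) and by 4041 to 5497 per letter C cell (median 4635). The lys spike RNA, added at 1000 copies per cell, read 12.80 ± 0.15 in letter B and 12.78 ± 0.16 in letter C on the log2 scale. The phe RNA, at 20 copies, read 8.86 ± 1.18 and 8.81 ± 0.69, so the spread over cells at this copy number was about 1 log2 unit in letter B without any biological difference. The thr RNA, at 5 copies, ranged from -0.95 to 8.55 in letter C and from -0.15 to 8.85 in letter B. Detection of transcripts at a few copies per cell was therefore incomplete.

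Letters B and C both carried the genes of intermediate progenitors, with Neurog2, Insm1 and Eomes at mean levels within 0.4 log2 units of each other. Eomes was above the floor in 7 of 7 letter C cells (lowest 9.63, median 11.03, highest 11.90) and in 13 of 14 letter B cells (floor, 10.87 and 12.15), with means of 10.86 ± 0.85 and 10.47 ± 1.60. The groups overlapped throughout, and Eomes lay at the floor in every cell of letters A, D and E. In letter X its mean was 6.80. Neurog2, the proneural factor that drives cortical neurogenesis, read 11.87 ± 0.40 in letter C and 11.82 ± 0.68 in letter B and passed the floor in all 21 cells. Insm1, a zinc finger factor that promotes the formation of intermediate progenitors, read 11.19 ± 0.49 and 10.99 ± 0.98, again in all 21 cells. Gadd45g, a stress and growth arrest gene of newly committed cells, read 9.68 ± 1.64 and 10.04 ± 1.77, a difference of -0.36. Over the 18 genes of the intermediate progenitor list, 2 were higher and 2 lower in letter C by at least 1 log2 unit (Sstr2 and Kif26b, Btg2 and Rhbdl3). Of all genes above the floor in at least 4 of the 21 cells, 6.48% were higher and 6.85% lower by that much. The median difference of the list (letter C minus letter B, as in every difference below) was 0.08, or -0.28 when letter B cells 8 and 9 were left out. Letter B was the less uniform of the letters. Its cells 8 and 9 had intermediate progenitor levels (the mean log2 signal over the list) of 7.43 and 6.85, the lowest of the 21. Their apical progenitor levels of 10.40 and 10.07 were the highest, and cell 9 had Eomes and Gadd45g at the floor. The other 12 letter B cells lay at or above the lowest letter C cell on the intermediate progenitor list, as did 4 of the 31 letter X cells (highest 8.95), and no cell of letters A, D or E. Without letter B cells 8 and 9 the differences of Eomes and Gadd45g were -0.11 and -0.87, and those of Dll1 and Rhbdl3 -1.46 and -2.02 in place of -0.97 and -1.38. Then 2 genes of the list were higher and 3 lower by at least 1 log2 unit, against 6.47% and 6.70% of the wider set of genes.

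**Figure D1:**
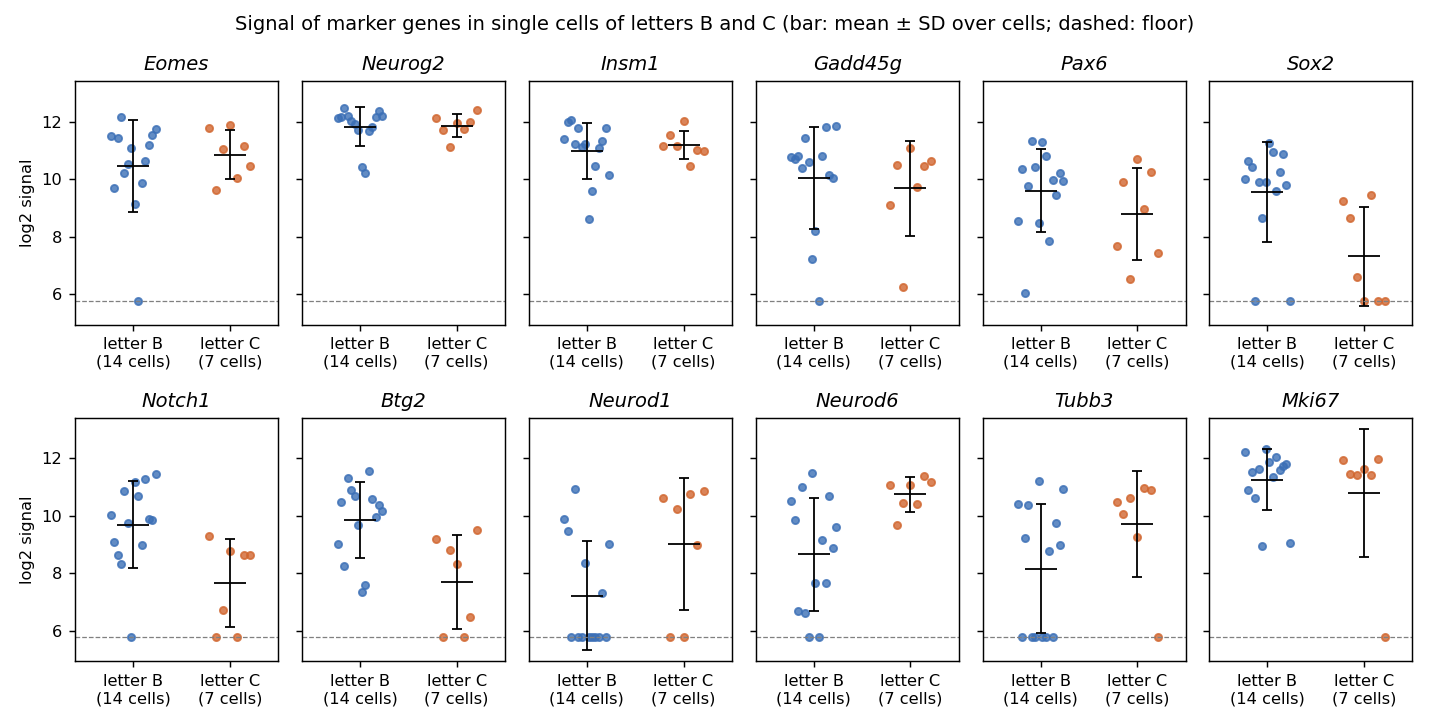
Log2 signal of 12 marker genes in each of the 14 letter B and 7 letter C cells. Points are cells, bars the mean and SD over cells, and the dashed line is the floor. Eomes, Neurog2, Insm1 and Gadd45g overlap between the letters, Sox2, Notch1 and Btg2 lie lower in letter C, and Neurod6 lies higher, with letter C between 9.67 and 11.38 and letter B spread from the floor to 11.51.

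Against this shared base, single genes differed by up to about 8-fold when values under the floor were set to it. This limit depends on the floor. Without a floor the sizes reached 6.16 log2 units among the 15 genes highest in letter C and 5.99 among the 15 lowest. Of the 7764 genes above the floor in at least 4 of the 21 cells (called measured below), 31 (0.399%) were higher in letter C by at least 2 log2 units (4-fold) and 22 (0.283%) were lower. At 1 log2 unit the counts were 503 (6.48%) and 532 (6.85%). These are rules of size and not tests. No gene had all letter C cells above all letter B cells or the reverse (0% in each direction). The median difference of all measured genes was -0.01, and the SD over cells of a measured gene had a median of 1.40 in letter B and 1.31 in letter C. The genes at the edge of the rule were Hs3st1 (2.002) and Dguok (1.996, just outside), and Gng2 (-2.001) and Hmgn3 (-1.99, just outside). Without letter B cells 8 and 9 the counts were 33 and 21, and without letter C cell 1 the count of lower genes was 37.

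**Figure D2:**
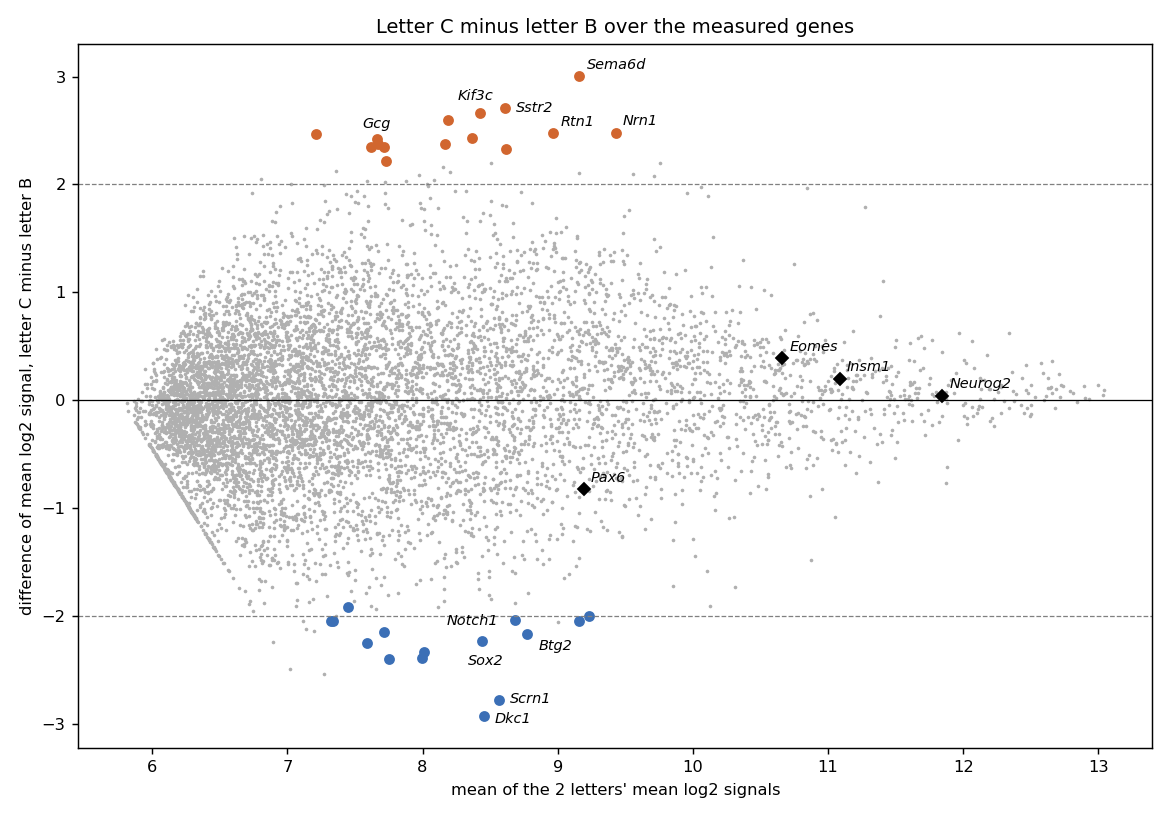
Difference of mean log2 signal (letter C minus letter B) against the mean of the means of the letters for the 7764 measured genes, with dashed lines at the 4-fold rule. Orange and blue points are the 15 genes highest and the 15 lowest in letter C by the naming rule, and black diamonds are Eomes, Insm1, Neurog2 and Pax6, which lie between -0.82 and 0.39.

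The 15 genes with the largest positive difference were Sema6d, Sstr2, Kif3c, Cacna2d1, Nrn1, Rtn1, Zpr1, Scg3, Gcg, Mtor, Slc17a6, Ppp3ca, Aff3, Cdk19 and Rwdd3. They were chosen for that difference among the 513 measured genes (6.61%) with at least 6 of 7 letter C cells above the floor and above the letter B median, so their values describe them and support nothing further. Sema6d, a transmembrane semaphorin that guides axons, ranged from 9.56 to 11.81 (median 10.66) over letter C cells and from the floor to 11.52 (median at the floor) over letter B cells, a difference of 3.01 or 8.03-fold. All 7 letter C cells were above the floor (exact Clopper-Pearson 95% interval of the share from 59.0%) and 6 of 14 letter B cells (17.7% to 71.1%). Intervals here and below cover counting error only. The letter C cells all exceeded the letter B median, but the highest letter B cells reached into their range. Sstr2, a receptor of the inhibitory peptide somatostatin, ranged from 9.07 to 10.84 (median 10.14) against the floor to 10.19 (median 6.59), a difference of 2.70. Nrn1, which encodes the neurite growth protein neuritin, ranged from 9.26 to 11.58 (median 11.20) against the floor to 12.16 (median 7.38), a difference of 2.48. In letter B 7 of 14 cells were above the floor and the others at it.

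Further members of these 15 include genes of vesicles, membranes and transport. Scg3, a secretogranin of dense-core vesicles, was above the floor in 7 of 7 letter C and 4 of 14 letter B cells (7.96 to 10.57 against the floor to 11.48, difference 2.43). Slc17a6, a vesicular transporter that loads glutamate into synaptic vesicles, was above it in 6 and 4 cells (floor to 10.19 against floor to 9.33, difference 2.37). Cacna2d1, an auxiliary subunit of voltage-gated calcium channels, had a difference of 2.60 and Rtn1, a reticulon of the endoplasmic reticulum in neurons, one of 2.47. Kif3c, a kinesin motor subunit, read 9.75 ± 0.51 in letter C, with all 7 cells between 9.22 and 10.73, against 7.09 ± 1.84 in letter B. Gcg, the precursor gene of glucagon and the glucagon-like peptides, was above the floor in 6 of 7 letter C cells (median 9.30, highest 10.98) and 3 of 14 letter B cells (highest 9.47), a difference of 2.42. Its signal was at the floor in every cell of letters A, D and E.

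The remaining genes of the 15 act in signalling or in the nucleus. Mtor, the kinase of a growth-controlling pathway, read 9.36 ± 0.86 in letter C and 6.98 ± 1.54 in letter B. Letter B was here the lowest of the 6 letters, since letters A, D, E and X had means between 8.22 and 8.77. Ppp3ca, the catalytic subunit of the calcium-dependent phosphatase calcineurin, read 8.89 ± 0.63 against 6.54 ± 1.13, and Cdk19, a kinase of the Mediator complex, 9.78 ± 0.59 against 7.45 ± 2.16. Zpr1 (a zinc finger protein), Aff3 (a nuclear transcription factor) and Rwdd3 (which promotes the attachment of the small modifier SUMO) had differences of 2.47, 2.34 and 2.21. In a single letter C cell 13 to 15 of the 15 genes were above the floor and in a single letter B cell 2 to 11, with letter B cells 1 and 7 at 11.

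The probe set that stands for a gene matters for these sizes. With the mean of all probe sets of a gene, all 15 were still higher in letter C, 12 by at least 1 and 6 by at least 2 log2 units, and Sema6d, which had 1 measured probe set, differed by 0.75.

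The genes lowest in letter C, drawn by size from the 315 (4.06%) that were above the floor in at least 11 of 14 letter B cells and had at least 6 of 7 letter C cells below the letter B median, included factors of neural stem cells. Sox2, a transcription factor that keeps neural progenitors undifferentiated, was above the floor in 4 of 7 letter C cells (floor, median 6.59, highest 9.46) and 12 of 14 letter B cells (floor, 9.97 and 11.25), a difference of -2.23. In letter A it read 10.22, and in letters D and E it was at the floor in every cell. Notch1, the receptor whose signal holds progenitors back from neurogenesis, ranged from the floor to 9.30 (median 8.63) in letter C and from the floor to 11.47 (median 9.88) in letter B, a difference of -2.04. Emx2, a homeobox gene of the dorsal cortex, was above the floor in 2 letter C and 12 letter B cells, a difference of -1.92. Btg2, an antiproliferative gene that marks progenitors about to make neurons, read 7.69 ± 1.63 (floor to 9.49) in letter C and 9.86 ± 1.32 (7.35 to 11.56) in letter B, a difference of -2.16. Letter B had the highest Btg2 mean of the 6 letters. Without letter B cells 8 and 9, Sox2, Notch1 and Btg2 differed by -1.98, -1.83 and -2.56.

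The largest negative difference belonged to a gene of RNA modification. Dkc1, which encodes dyskerin, the pseudouridine synthase of small nucleolar and telomerase RNA complexes, was above the floor in all 14 letter B cells (7.56 to 11.14, median 10.15) and in 2 of 7 letter C cells (highest 10.24), a difference of -2.92 or 7.58-fold. Scrn1, which encodes secernin, differed by -2.77 with 3 and 14 cells above the floor. Polr1c, a subunit shared by RNA polymerases I and III, differed by -2.40 (3 and 13 cells). Myo10, an unconventional myosin of filopodia, and Efhd2, a calcium-binding partner of actin, were each above the floor in all 14 letter B and 2 letter C cells, with differences of -2.39 and -2.33. Myo10, Efhd2, Polr1c and Dkc1 had their highest mean in letter B among the 6 letters.

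The other 6 were Zfp277 (-2.25, a zinc finger protein), Bach2 (-2.14, a transcription factor), Zfp704 (-2.05), Ecd (-2.04), Slc25a36 (-2.04, a mitochondrial nucleotide carrier) and Hmgn3 (-1.99, a nucleosome-binding protein). Of these, a second measured probe set of Zfp704 had the other sign. Letter C cell 1 expressed 13 of the 15 genes of this group above the floor, while the other letter C cells expressed 3 to 8 and letter B cells 12 to 15. With the mean of all probe sets all 15 stayed lower in letter C, 2 of them by at least 2 log2 units.

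**Figure D3:**
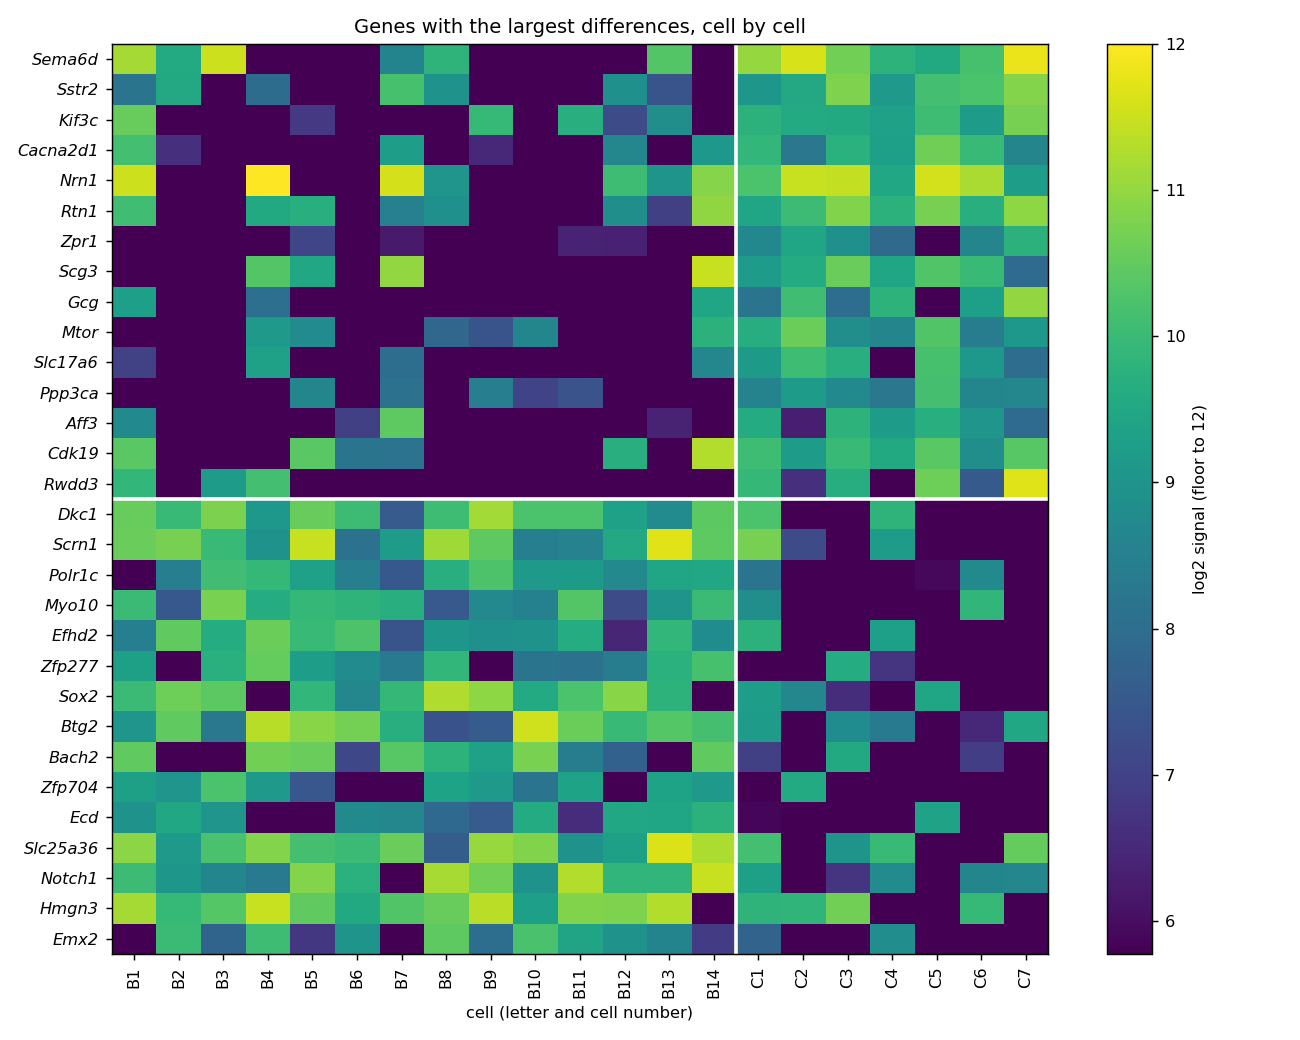
Log2 signal of the 15 genes highest (top) and the 15 lowest (bottom) in letter C, with a column for each letter B and letter C cell, on a colour scale from the floor to 12. Letter C cells carry 13 to 15 of the upper genes above the floor, letter B cells 2 to 11, and letter C cell 1 keeps 13 of the lower genes.

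Neurog2 and the Neurod factors bind short DNA motifs called E-boxes, of which the letters CAGATG are a common form, read as CATCTG on the other strand. The 250 bases before the start site were searched on both strands for this form and for the form CAGCTG in RefSeq promoters of the mouse assembly GRCm38.p6. Of the 12 genes highest in letter C that had a promoter entry, 4 (33.3%) held CAGATG (Gcg, Kif3c, Rtn1 and Slc17a6), and of the 13 lowest, 0 did. The share was 10.7% over the measured genes and 16.3% over all genes with a promoter. CAGCTG was found in 0 of 12, in 1 of 13 (Scrn1) and in 12.5% of measured genes. The genes were chosen by their difference and a match is a description of the letters, not of binding. The promoters of Gcg, Kif3c and Slc17a6 are shown because these genes were higher in letter C and hold the letters, printed in capitals, at positions counted back from the start site. Gcg lies on the minus strand (chr2:62483654-62483903) and holds CAGATG at -139 and -83. Kif3c lies on the plus strand (chr12:3364882-3365131) and holds it as CATCTG at -222. Slc17a6 lies on the plus strand, and of its 2 promoter entries the one at chr7:51624387-51624636 holds it at -205.
Gcg: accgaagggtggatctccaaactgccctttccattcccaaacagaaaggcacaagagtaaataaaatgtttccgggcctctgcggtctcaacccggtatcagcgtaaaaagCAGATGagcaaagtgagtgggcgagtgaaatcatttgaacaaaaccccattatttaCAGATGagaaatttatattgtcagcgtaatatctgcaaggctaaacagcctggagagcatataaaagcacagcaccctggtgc
Kif3c: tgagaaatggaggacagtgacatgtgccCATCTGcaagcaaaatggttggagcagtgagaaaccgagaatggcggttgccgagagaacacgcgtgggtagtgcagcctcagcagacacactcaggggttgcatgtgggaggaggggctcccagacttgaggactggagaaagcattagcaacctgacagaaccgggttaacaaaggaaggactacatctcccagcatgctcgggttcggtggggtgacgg
Slc17a6: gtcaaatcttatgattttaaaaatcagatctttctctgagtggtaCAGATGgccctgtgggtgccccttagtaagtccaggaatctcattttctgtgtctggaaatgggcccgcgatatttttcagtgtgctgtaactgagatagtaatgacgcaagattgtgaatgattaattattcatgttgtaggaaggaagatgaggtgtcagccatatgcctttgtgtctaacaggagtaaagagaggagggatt

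Genes of apical progenitors were lower in letter C on the whole. Of 22 listed genes 18 were measured, and 7 of them were lower by at least 1 log2 unit and none higher, against 6.85% and 6.48% of all measured genes. In all, 16 of the 18 had a negative difference, and the median was -0.80 against -0.01 over all measured genes. When letter B cells 8 and 9 were left out, 3 of the 18 were lower by at least 1 log2 unit, against 6.70% of all measured genes, and the median was -0.47. Vim, the intermediate filament vimentin of radial glia, read 9.45 ± 1.86 (floor to 11.38) in letter C and 11.18 ± 1.30 (7.99 to 12.40) in letter B. Ptprz1, a receptor phosphatase of radial glia, was above the floor in 2 of 7 and 9 of 14 cells with a difference of -1.77. Mfge8, a secreted adhesion protein, and Ttyh1, a membrane protein of progenitors, were each above it in 1 and 7 cells, with differences of -1.44 and -1.27, or -0.95 and -0.89 without letter B cells 8 and 9. Pax6 was above the floor in all 21 cells and differed by -0.82, with letter C between 6.53 and 10.71 and letter B between 6.05 and 11.33. The Notch effectors Hes1 and Hes5 were above the floor in 0 of 7 letter C cells, and in 0 and 2 of 14 letter B cells. A count of 0 of 7 allows a share of up to 42.9% and 0 of 14 up to 21.4% by the rule of 3 counts, and the exact Clopper-Pearson limits are 41.0% and 23.2%.

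The apical level of a cell, averaged over the 18 genes, was 7.34 to 8.25 in letter C (median 7.58) and 7.46 to 10.40 in letter B (median 8.03). Of the letter B cells 5 lay above every letter C cell, and 6 of 7 letter C cells below the letter B median. The highest 2 of the letter B cells were cells 8 and 9. Letters D and E averaged 6.20 and 6.42 on this list and letter A 10.28, so that letters B and C both lay between them. Of genes outside the naming rule, singled out after their values were seen, Sox3, a relative of Sox2, was above the floor in 0 of 7 letter C and 8 of 14 letter B cells. Its mean was at least 5.62-fold lower in letter C. In letter A it read 10.76.

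Genes of the Notch pathway differed one by one. Of 16 measured genes 1 was higher and 2 were lower by at least 1 log2 unit. These shares were 6.48% and 6.85% over all measured genes, and the median of the list was -0.04. Without letter B cells 8 and 9, 1 was higher and 3 were lower by that much, against 6.47% and 6.70% of all measured genes. The list's median was then -0.28, and it was -0.27 over the cells whose title number occurs in both letters. Notch2, a second receptor, was above the floor in 0 letter C and 9 letter B cells and was at least 4.73-fold lower. Dll1, a ligand presented by committed cells, read 7.71 ± 1.96 against 8.68 ± 2.41. Rbpj, the DNA-binding partner of the cleaved receptor, read 9.57 ± 1.20 in letter C and 8.52 ± 1.88 in letter B, a difference of 1.05, with 7 and 11 cells above the floor. The Notch feedback gene Nrarp differed by -0.72.

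Late proneural factors were higher in letter C while the early ones were level. Neurod6, a bHLH factor of postmitotic cortical neurons, ranged from 9.67 to 11.38 (median 11.08) in letter C, above the floor in 7 of 7 cells, and from the floor to 11.51 (median 9.01) in letter B, in 12 of 14 cells, a difference of 2.08 or 4.23-fold. Neurod2 read 9.69 ± 0.58 (8.91 to 10.71) against 8.26 ± 1.75 (floor to 10.35), in 7 and 10 cells. Neurod1, which acts downstream of Eomes, was above the floor in 5 of 7 and 6 of 14 cells, with a median of 10.24 in letter C and at the floor in letter B, a difference of 1.78. The ranges of all 3 overlapped between the letters. Leaving out letter B cells 8 and 9 gave differences of 1.76 for Neurod6, 1.02 for Neurod2 and 1.54 for Neurod1. Id4, an inhibitor of bHLH factors found in apical progenitors, had a difference of -1.04, or -0.45 without letter B cells 8 and 9, and Tcf3, their common dimer partner, 0.72. Over the 12 measured genes of the bHLH list, 3 were higher and 1 lower (Id4) by at least 1 log2 unit, against 6.48% and 6.85% of all measured genes, and the median was 0.27. The level of this list in single cells was 8.55 to 9.13 in letter C and 7.71 to 9.08 in letter B.

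Neuronal genes were higher in letter C, while many genes of mature neurons stayed at the floor in both letters. Of 27 listed genes 17 were measured, of which 8 were higher by at least 1 log2 unit and none lower, against 6.48% and 6.85% of all measured genes, and the median was 0.99. Leaving out letter B cells 8 and 9 gave 7 higher genes and a median of 0.84. In all 15 of 17 had a positive difference. Tubb3, the neuronal tubulin, was above the floor in 6 of 7 letter C cells (median 10.48, highest 10.98) and in 8 of 14 letter B cells (median 8.88, highest 11.22), a difference of 1.56. Dcx, the microtubule protein of migrating neurons, ranged from 8.07 to 11.42 against the floor to 11.60, a difference of 0.99. Elavl4, a neuronal RNA-binding protein, read 9.76 ± 1.11 against 8.21 ± 1.99, in 7 and 10 cells. Snap25, a membrane fusion protein of the synapse, was above the floor in 7 and 4 cells, between 7.16 and 8.75 in letter C. Rbfox3, which encodes the neuronal splicing factor NeuN, was above it in 5 and 5 cells with a difference of 1.45.

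The neuron level of a cell was 7.82 to 9.65 in letter C (median 8.53) and 6.50 to 9.35 in letter B (median 7.62). All 7 letter C cells lay above the letter B median and 8 letter B cells below every letter C cell. Letters D and E averaged 9.77 and 9.43 on the same genes and letter A 6.80. The list's median was 0.23 over cells whose title number occurs in both letters, and 0.80 to 1.18 when each cell was left out in turn.

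Genes of migration showed a like pattern with fewer large differences. Of 25 measured genes 6 were higher by at least 1 log2 unit and none lower, against 6.48% and 6.85% of all measured genes, and the median was 0.41. Rnd2, a small GTPase that Neurog2 controls in migrating neurons, lay between 11.61 and 12.31 in all 7 letter C cells and between the floor and 12.66 in letter B, with 12 of 14 cells above the floor and a difference of 1.97. Its SD was 0.26 in letter C and 2.51 in letter B. Rnd3, its relative, differed by 1.53. Dcc, the netrin receptor, was above the floor in 6 and 7 cells with a difference of 2.004, and L1cam, an adhesion molecule of axons, in 6 and 4 cells with 1.66. Cxcl12, a chemokine made by intermediate progenitors, was above the floor in 6 of 7 letter C cells (median 9.20, highest 11.66) and 4 of 14 letter B cells (highest 11.09), a difference of 1.88.

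The list of projection neuron and layer genes holds factors of deep and upper layers and some of broader use. Of 14 measured genes 13 had a positive difference, and the median was 0.48. By at least 1 log2 unit 3 were higher (Bcl11b, Fezf2 and Foxp2) and none lower, against 6.48% and 6.85% of all measured genes. Without letter B cells 8 and 9, 11 had a positive difference, 4 of at least 1 log2 unit. The upper-layer factors Cux1 and Cux2 differed by 0.11 and 0.50. Fezf2, a selector of subcerebral projection neurons, read 9.77 ± 1.46 and 8.56 ± 1.83, and Bcl11b, its downstream factor, was above the floor in 5 and 2 cells, with another measured probe set of the other sign. Tbr1, a factor of early corticothalamic neurons, was above the floor in 5 of 7 and 4 of 14 cells (7.67 ± 1.72 against 6.78 ± 1.71). Bcl11b and Tbr1 read 11.57 and 9.98 in the cortical plate cells of letter E.

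**Figure D4:**
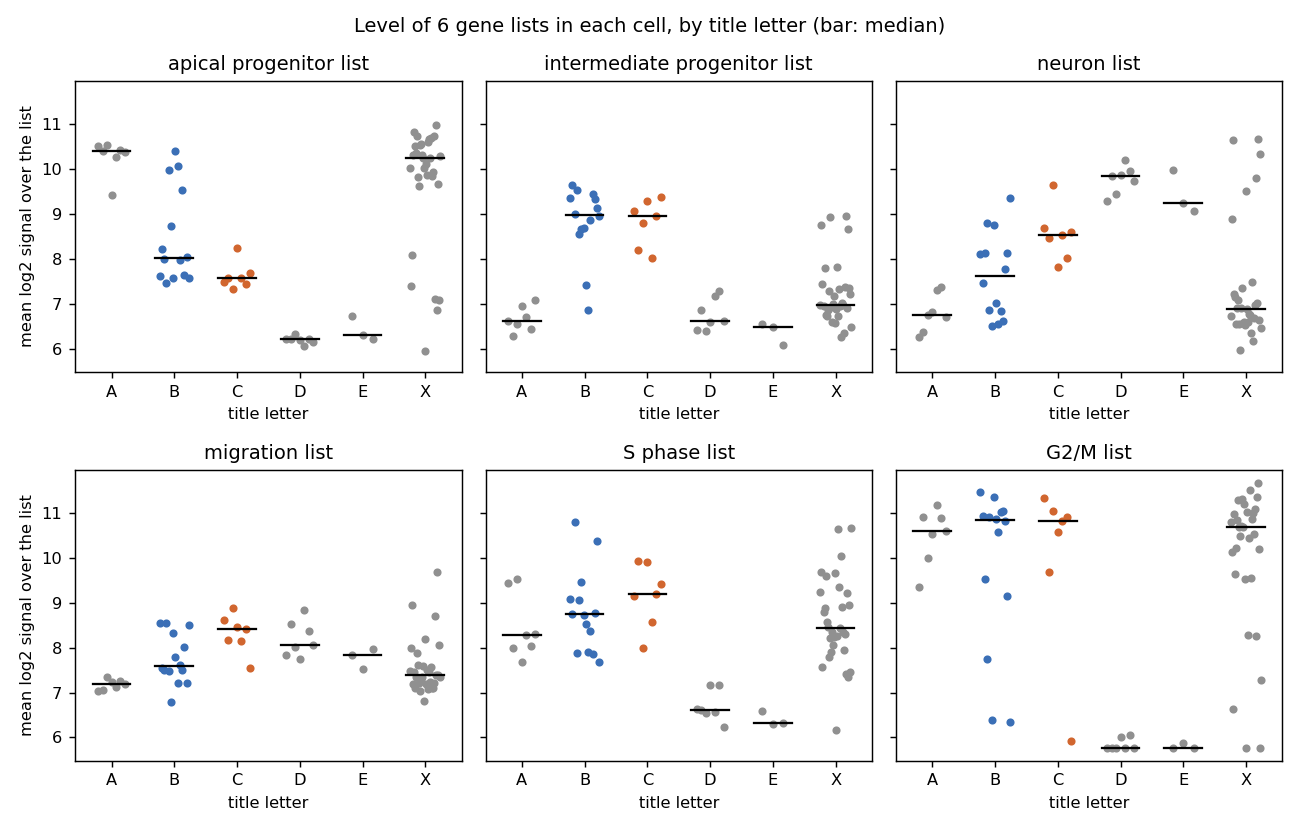
Mean log2 signal over the measured genes of 6 lists in every cell, by title letter, with bars at the median. Letters B (blue) and C (orange) share the high intermediate progenitor level, letter C lies lower on the apical list (7.34 to 8.25) and higher on the neuron list (7.82 to 9.65), and 1 letter C cell has a G2/M level of 5.92 beside 6 between 9.68 and 11.33.

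Most cells of both letters carried the transcripts of dividing cells. Mki67, a protein of cycling nuclei, was above the floor in 6 of 7 letter C cells (median 11.47, highest 11.97) and in 14 of 14 letter B cells (8.94 to 12.34, median 11.61). Top2a, the topoisomerase of chromosome condensation, was likewise above it in 6 and 14 cells, with medians of 12.32 and 12.44, and a second probe set gave a difference of the other sign. Letter C cell 7 had both genes and Tubb3 at the floor. The level of the G2/M list was 5.92 in that cell and 9.68 to 11.33 in the other 6, and 6.34 to 11.47 in letter B, where cells 6 and 14 were lowest. Over the 25 measured G2/M genes the median difference was 0.25, which became 0.91 without letter C cell 7, -0.074 without letter B cell 6, -0.064 without letter B cell 14 and 1.11 over the cells whose title number occurs in both letters. Of 22 measured S phase genes 3 were higher in letter C by at least 1 log2 unit and none lower, against 6.48% and 6.85% of all measured genes. The median was 0.48, or 0.29 with 2 higher genes without letter B cells 8 and 9. The 3 higher genes were Cdt1 (1.36, a licensing factor of replication origins), and Tk1 (1.21) and Tyms (1.08), enzymes of thymidine nucleotide synthesis.

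Genes that govern the exit from the cycle differed one by one. Ccnd1, the cyclin that carries cells through G1, was above the floor in 1 of 7 letter C cells (7.36) and in 9 of 14 letter B cells (median 8.86, highest 11.46), a difference of -2.54, and was at the floor in every cell of letters D and E. Tob1, an antiproliferative relative of Btg2, was above the floor in 1 and 10 cells (-1.54), and Gadd45a in 0 and 7, at least 2.48-fold lower in letter C. Rb1, the retinoblastoma protein that restrains entry into S phase, read 9.49 ± 0.68 in letter C, all 7 cells between 8.63 and 10.49, and 7.68 ± 1.58 in letter B, a difference of 1.81. Cdkn2d, an inhibitor of G1 kinases, read 9.64 ± 1.14 against 8.62 ± 1.94. Cdkn1c, the inhibitor that accompanies final divisions, was above the floor in 3 letter C and 0 letter B cells, at least 1.86-fold higher in letter C. Over the 20 measured genes of this list 2 were higher and 3 lower by at least 1 log2 unit, against 6.48% and 6.85% of all measured genes, and the median was -0.01.

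Genes of the FGF pathway read lower in letter C by a margin that depended on letter B cells 8 and 9, and Wnt genes were mixed. All 6 measured genes of the FGF and ERK list had a negative difference, 2 of them of at least 1 log2 unit, against 6.85% of all measured genes, and the median was -0.63. Etv5, a transcriptional target of FGF signalling, was above the floor in 4 and 13 cells (-1.29), and the receptor genes Fgfr1, Fgfr3 and Fgfr2 had differences of -1.06, -0.77 and -0.33. Without letter B cells 8 and 9 the differences of the receptor genes were -0.79, -0.33 and 0.09, 5 of the 6 genes were negative, 1 (Etv5, -1.10) by at least 1 log2 unit, and the median was -0.33. Over the cells whose title number occurs in both letters the median was -0.28. Among 12 measured Wnt genes 2 were higher and 3 lower by at least 1 log2 unit, against 6.48% and 6.85% of all measured genes. Without letter B cells 8 and 9, 3 of the 12 were higher and 2 lower by that much. The receptor Fzd1 read 10.92 ± 0.91 against 8.99 ± 2.29 (1.93), while Fzd8, a receptor of apical progenitors, differed by -1.04 (-0.73 without letter B cells 8 and 9) with a second probe set of the other sign. Axin2, a feedback gene of the pathway, was above the floor in 0 and 4 cells, at least 2.07-fold lower in letter C.

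Of the regional genes of the cortex, Emx1 was higher and Emx2 lower. Emx1 read 9.02 ± 0.76 in letter C, with all 7 cells between 7.996 and 9.82, and 7.81 ± 1.44 in letter B, where 12 of 14 cells were above the floor. Emx2 stands among the lowest genes above. Nr2f1, a nuclear receptor that patterns cortical areas, read 11.06 ± 0.38 and 10.68 ± 0.90 in all 21 cells. The 7 measured genes had a median of -0.15.

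Metabolic genes were lower in letter C for glycolysis. Of 14 measured genes 12 had a negative difference, 2 of them of at least 1 log2 unit, against 6.85% of all measured genes. The median was -0.51, or -0.21 over the cells whose title number occurs in both letters. Ldha, the lactate dehydrogenase subunit, read 7.74 ± 1.85 against 9.62 ± 1.65 and Tpi1, triosephosphate isomerase, 8.11 ± 1.40 against 9.58 ± 0.94, with 6.38 to 10.26 in letter C and 7.34 to 10.71 in letter B. Cholesterol synthesis had a median of -0.26 over 12 genes, with Idi1 (-1.23) and Sqle (-1.03) lower by at least 1 log2 unit. Without letter B cells 8 and 9 the median was -0.13 and these genes differed by -0.92 and -0.87. The list of cytosolic ribosomal protein genes had a high mean level in every cell (11.38 to 11.66 in letter C and 10.80 to 11.68 in letter B). Single members such as Rps6 lay at the floor in some cells of both letters. None of the 18 measured genes of the list reached 1 log2 unit and the median was 0.10. Rpl12, a ribosomal protein gene outside these 18, was above the floor in no letter C cell and in at least 8 letter B cells.

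The remaining lists are set against 6.48% of all measured genes that were higher and 6.85% that were lower by at least 1 log2 unit. Of 17 measured subunits of the BAF chromatin remodelling complex 3 were higher by at least 1 log2 unit (Smarcb1, Smarcd1 and Bcl7a, 1.41, 1.13 and 1.10) and none lower, and the median was 0.30. Bcl7a differed by 0.84 without letter B cells 8 and 9. Of 17 RNA-binding proteins, Elavl4 and Elavl2 were higher (1.55 and 1.03, or 1.14 and 0.47 without letter B cells 8 and 9). Zfp36l1, which degrades messenger RNA, was above the floor in 0 letter C and 8 letter B cells, at least 2.34-fold lower. It read highest in letter B cells 8 and 9 (10.01 and 9.62), and without them its difference was -0.76. Of 7 measured channel and receptor genes 6 had a positive difference and 2 were higher by at least 1 log2 unit, Cacna2d1 and the AMPA receptor subunit Gria2 (1.13). Apical junction and polarity genes had a median of -0.31 over 15 genes, with Ctnna1 (alpha-catenin) at -1.08 and another of its probe sets of the other sign. Matrix and integrin genes had a median of 0.03 over 13, with Ptprz1 lower and Itga6, a laminin receptor subunit, higher by 1.005. Of 9 measured p53 and cell death genes 3 were higher (Bcl2l1 1.36, Trp53inp1 1.13, Apaf1 1.11), and of 7 immediate early genes 2 were lower, Btg2 and Dusp1 (-1.25), with medians of 0.24 and -0.23. These medians were 0.10 and -0.38 without letter B cells 8 and 9, and Trp53inp1 differed by 0.98.

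Markers of other cell types were nearly absent from the 21 cells. No gene of the interneuron (10 genes with a probe set), endothelial (9), microglial (9) and erythroid (5) lists was above the floor in any of them. Of pericyte and meningeal genes 8 of 10 lay at the floor in all 21 cells, and of oligodendrocyte precursor genes 5 of 6. Of Cajal-Retzius genes, Reln was above the floor in 2 letter C and 2 letter B cells and Ebf3 in 1 and 5.

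The other letters place these genes. For 9 of the 15 genes highest in letter C, that letter had the highest mean of the 6 letters, and for 11 it lay above letter D. Choosing genes bright in letter C raises it against every letter: among the 513 measured genes that meet the same condition it was highest for 60.0% and above letter D for 82.3%, against 19.5% and 61.6% of all measured genes, so that these counts are a description and no finding about the 15. Sstr2 (7.11 in letter D), Nrn1 (7.35), Slc17a6 (5.92), Gcg (floor) and Rwdd3 (6.20) were among these. Rtn1 and Aff3 read highest in letter D (11.72 and 10.28), and Kif3c and Scg3 were higher there than in letter C as well. Of the 15 lowest genes, letter B had the highest mean of all letters for 9 and letter A for 5, and letter C was the lowest letter for 6. This choice likewise favours letter B and disfavours letter C: among the 315 genes that meet its condition letter B was highest for 40% and letter C lowest for 23.2%, against 13.7% and 9.48% of all measured genes.

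**Figure D5:**
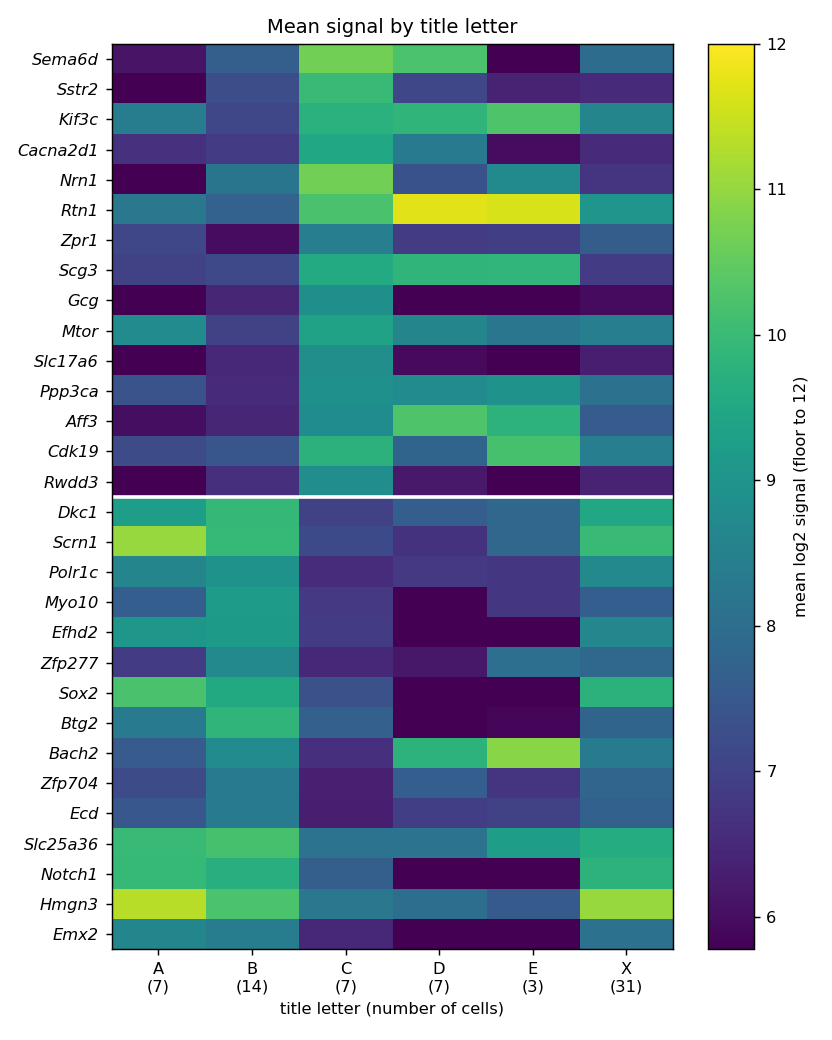
Mean log2 signal of the same 30 genes in the cells of each title letter, with the number of cells in brackets, on a colour scale from the floor to 12. Sstr2, Nrn1, Gcg, Slc17a6 and Rwdd3 peak in letter C, Rtn1 and Aff3 in letter D, and Sox2, Notch1 and Emx2 lie at the floor in letters D and E.

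Over all measured genes the letters were close to each other. Pearson's r between the log2 signals of a pair of cells had a median of 0.52 within letter C (0.43 to 0.62, 21 pairs), 0.48 within letter B (0.34 to 0.61, 91 pairs) and 0.48 between them (0.37 to 0.63, 98 pairs), across genes that are not independent. All 7 letter C cells had their higher median r with letter C, while 8 of 14 letter B cells also had it with letter C rather than with letter B.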

How the data were processed

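The values analysed were deposited probe set intensities on a linear scale, which the authors computed with MAS5, as the submitters' processing notes say. Version and scaling are not given in the sources used here, and no detection calls were used. The platform annotation names 1 gene for 34958 of 45101 probe sets, and of these the brightest by mean log2 signal across the 69 cells stood for each of 18194 genes. Values under the floor (54.8, the dip between the modes at 2.57 and 8.97 of the deposited values on the log2 scale, passed by 17.8% of values and by 0 of 207 values of the TrpnX control) were set to it before log2. Cells were grouped by title letter and numbered in accession order. Differences are letter C minus letter B of mean log2 signal. Since the log2 scale stops at the floor, differences of dim genes are understated. Where no cell of a letter was above the floor, the other letter's mean over the floor is given as a lower bound. The precision is limited by the number of cells, and no test, p-value or count model was used, because each letter is 1 sample. No doublet caller was run. Named genes were the 15 with the largest positive difference (above the floor in at least 6 of 7 letter C cells, at least 6 of them above the letter B median), the 15 with the largest negative difference (above the floor in at least 11 of 14 letter B cells, at least 6 of 7 letter C cells below the letter B median), 18 named in any case and up to 5 per list of 30 lists. Of 527 listed genes 486 had a probe set and 325 were measured. Members, lists and rules were chosen with earlier results of these data known. The difference was tested on simulated data, with known shifts given only to genes above the floor in nearly all of the 69 cells. That simulation tested neither the choice of floor nor genes with many cells at it. Python 3.11.15, numpy 2.4.6, pandas 2.3.3 and scipy 1.17.1 were used.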

Additional observations from a re-analysis of the deposited data

Results flagged for a closer look

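There were 60 series of letter C values (named genes, list levels, spike RNAs, the trimmed mean signal and the number of genes above the floor). In each, the highest and the lowest of the 7 cells were set against the next cell by Dixon's ratio, and 12 were marked. Hes1 and Hes5, at the floor in all 7 letter C cells, had no range and could not be examined. The ratio marks about 1 in 20 groups of unclipped normal values by chance. Signals here are clipped at the floor, so that rate does not hold, and a gene above the floor in 1 letter C cell alone is marked by construction (Zfp704 and Ccnd1). Letter C cell 7 was lowest for Mki67, Top2a and Tubb3, all at the floor (5.775), where the next cells read 11.41, 11.81 and 9.26, and for the G2/M level (5.92, next 9.68). The same cell had the highest lys spike signal (13.10, next 12.79) and, though not marked for it, the fewest genes above the floor of the letter C cells (4041). Letter C cell 3 was highest for Zfp277 (9.63, next 6.73) and Bach2 (9.55, next 6.96) and lowest for Gadd45g (6.26, next 9.09). Zfp704 was above the floor in letter C cell 2 alone (9.57), Ccnd1 in letter C cell 1 alone (7.36), and Ecd read 9.37 in letter C cell 5 against 5.87 in the next. The apical progenitor level was 8.25 in letter C cell 4 and 7.68 in the next.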

How the results depend on the processing

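The counts of genes past 4-fold depend on how dim signals are treated. With the floor at the 95th percentile of TrpnX (6.26), 340 genes were higher and 343 lower in letter C, without a floor 643 and 660, with the median over cells 374 and 322, and averaging a gene's probe sets 10 and 3. At 1 log2 unit the counts were 503 and 532. Under a replicate block on the title number (10, 14 and 16, the numbers that occur in both letters, whose meaning the labels do not give) they were 193 and 158, from fewer cells. Leaving out each cell in turn gave 25 to 39 higher and 18 to 37 lower genes, 37 without letter C cell 1. Scaling to a common trimmed mean, by quantiles or to lys gave 38 and 21, 37 and 23, and 35 and 22, and no filter left both counts as they were. The share of higher among all genes past 4-fold was 58.5%, 49.8% with the TrpnX floor, 49.3% without a floor and 76.9% with all probe sets. Of 24 list medians 9 kept their sign in all 30 settings, namely the apical progenitor, bHLH, neuron, projection neuron, migration, S phase, FGF and ERK, BAF and glycolysis lists. The G2/M median was -0.074 to 0.91 with a cell left out, turned to -0.074 and -0.064 without letter B cells 6 and 14, and was 1.11 under the block. The block gave 0.23 for the neuron, -0.28 for the FGF and ERK, -0.21 for the glycolysis and -0.49 for the apical progenitor list. All 30 genes chosen for size kept their sign. At the TrpnX floor the share of cells above the floor left its 95% interval in 5 of 36 cases, and 10 of 16 mean list levels per letter moved by over the SD over cells. Leaving out letter B cells 8 and 9 together was chosen after seeing the data. The cause of these shifts was not tested.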

Other observations

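A few genes were above the floor in many cells of one letter and in none of the other. They and the limits used to find them were chosen after the values were seen. Of the 7764 measured genes, 5 were above the floor in at least 4 letter C cells and in no letter B cell. Above the floor in 0 of 14 letter B and 4 of 7 letter C cells were Rufy3, a protein of neuronal polarity and axons (at least 4.15-fold higher), Lyrm4, a factor of iron-sulfur cluster assembly (at least 3.78-fold), Sorcs3, a sorting receptor of neurons (at least 2.29-fold), Lins1 (at least 2.23-fold) and Eogt, a glycosyltransferase that modifies Notch receptors (at least 1.96-fold). Sorcs3 was at the floor in every cell of letters A, D, E and X. In the other direction, 11 of the 7764 measured genes were above the floor in 0 of 7 letter C and at least 8 letter B cells. Beside Sox3, Notch2 and Zfp36l1 they included Rpl12, a ribosomal protein (at least 3.86-fold lower), Spidr, a DNA repair scaffold (at least 3.33-fold), Tspan18, a tetraspanin (at least 3.14-fold), and Rad9a, a checkpoint clamp subunit (at least 2.44-fold).

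Further genes higher in letter C by at least 2 log2 units included Kif21b, a kinesin of axons and dendrites (10.86 ± 0.67 against 8.65 ± 2.41), Carmil3, a regulator of actin capping (10.61 ± 0.45 against 8.51 ± 2.18), Gpm6a, a membrane glycoprotein of growth cones (9.26 ± 0.90 against 7.14 ± 1.47), and Nav1, a neuron navigator of microtubules (9.10 ± 1.66 against 7.07 ± 1.77). Further genes lower by at least that much included Psap, the lysosomal prosaposin (6.13 ± 0.60 against 8.27 ± 1.71), and Ybx3, a cold shock RNA-binding protein (7.98 ± 2.18 against 10.03 ± 0.90, with 4 and 14 cells above the floor). Of 10092 probe sets with several genes or none in the annotation, 1322 were above the floor in at least 4 of the 21 cells, 7 of them higher and 4 lower in letter C by at least 2 log2 units.

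Sox2 and late genes were set against each other cell by cell. Sox2 and Neurod1 were both above the floor in 4 of 14 letter B cells, where 8 had Sox2 alone, and in 3 of 7 letter C cells. Neurod6 and Sox2 were both above the floor in 10 of 14 letter B and 4 of 7 letter C cells, and Neurod6 and Mki67 in 12 of 14 and 6 of 7. Tubb3 and Mki67 were both above it in 8 of 14 and 6 of 7. Every letter C cell with Sox2 also had Tubb3 (4 cells), while 6 of 12 letter B cells with Sox2 did. Over all cells, with or without Sox2, Tubb3 was above the floor in 6 of 7 letter C and 8 of 14 letter B cells. The counts are therefore no finding about a link between Sox2 and Tubb3.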
